A study of Mus musculus with 12 samples.

Results

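Ifitm1, Ifitm2 and Ifitm3 encode interferon-induced transmembrane proteins, and their transcript levels were compared among 4 sorted blood cell populations of the mouse. These 3 genes, the members, were set by choice, and each had an array probe set assigned to it alone, as had 18193 genes in all. Other Ifitm genes with such a probe set are given further below. Each member had 1 probe set, so its level came from a single measurement per array, namely 1424254_at for Ifitm1, 1417460_at for Ifitm2 and 1423754_at for Ifitm3. All arrays held RNA of C57Bl/6 mice aged 10 to 12 weeks, with no engineered allele and no treatment named in the labels. The tested populations were mature CD4+ T cells from spleen (2 arrays; sorted as CD4+ CD8- B220- Nk1.1-), PreMegE, the pre-megakaryocyte/erythrocyte progenitors of the bone marrow (4 arrays; lineage-, cKit+, Sca1-, CD150+, CD105-, CD41-), and MPP, the multipotent progenitors (3 arrays; lineage-, cKit+, Sca1+, CD150-, Flt3+). Each was set against the populations listed after it and against HSC, the haematopoietic stem cells (3 arrays; lineage-, cKit+, Sca1+, CD150+, Flt3-). The HSC and MPP arrays were made for the study, while those of PreMegE and of CD4+ T cells were taken over from earlier work of the same group, so cell type and study of origin cannot be told apart in any comparison that involves PreMegE or CD4+ T cells, and CD4+ T cells also differ from the others in organ.

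IFITM proteins are small membrane proteins of the plasma membrane and endosomes that hinder the fusion of enveloped viruses with the cell. Interferons bound to their receptors activate Janus kinases, Jak1 among them. Transcription factors, Irf9 among them, then carry the signal to the interferon-stimulated response element (ISRE), and interferon gamma also acts through the gamma-activated site (GAS). Both elements lie in promoters of interferon-induced genes. Ifitm3 is the member best known for limiting influenza virus. Stem cells of several kinds are known to express members of the family without an added interferon stimulus, and mouse Ifitm1 and Ifitm3 are also known from primordial germ cells.

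The promoter windows of the 3 members are shown because they carry different numbers of ISRE core matches, while all lie within the same gene cluster on chromosome 7. Each runs from 250 bases before to 30 bases after the annotated start of the gene (RefSeq, build GRCm38.p6), 5′ to 3′ on the gene's strand. Capitals mark matches to the ISRE core searched, which is GAAA, any 2 bases and GAAA again, on either strand. Ifitm1 spans chr7:140967826-140968105 on the plus strand, Ifitm2 spans chr7:140955932-140956211 on the minus strand and Ifitm3 spans chr7:141010715-141010994 on the minus strand.
Ifitm1: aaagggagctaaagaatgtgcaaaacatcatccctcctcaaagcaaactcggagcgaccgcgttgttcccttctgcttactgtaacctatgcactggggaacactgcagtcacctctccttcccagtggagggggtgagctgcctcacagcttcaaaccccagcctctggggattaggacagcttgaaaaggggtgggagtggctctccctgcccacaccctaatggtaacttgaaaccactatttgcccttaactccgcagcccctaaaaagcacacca
Ifitm2: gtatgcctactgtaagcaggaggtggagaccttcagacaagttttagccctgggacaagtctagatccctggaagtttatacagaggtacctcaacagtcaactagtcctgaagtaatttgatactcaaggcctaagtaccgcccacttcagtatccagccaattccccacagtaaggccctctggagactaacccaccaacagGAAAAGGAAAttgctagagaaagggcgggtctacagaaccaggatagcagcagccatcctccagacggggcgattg
Ifitm3: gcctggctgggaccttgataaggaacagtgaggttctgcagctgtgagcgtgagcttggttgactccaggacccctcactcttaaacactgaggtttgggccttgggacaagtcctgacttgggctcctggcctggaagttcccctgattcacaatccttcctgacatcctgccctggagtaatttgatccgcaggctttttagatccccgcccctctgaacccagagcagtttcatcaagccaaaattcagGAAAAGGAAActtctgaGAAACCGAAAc

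Ifitm1 held no match, which says only that these letters are not in this window. Ifitm2 held GAAAAGGAAA at positions -46 to -37 relative to the start. In Ifitm3 the same 10 letters stood at positions 3 to 12, and GAAACCGAAA followed at positions 20 to 29. The core was found in 3.28% of 32851 RefSeq promoter windows of this length. Counted by gene, it was in 3.8% of 27025 genes. It was in 15 of the 33 genes (45.5%) of a list of interferon-induced antiviral genes that had a window. The GAS letters TTCNNNGAA matched once among the members, as TTCTGAGAA at positions 14 to 22 of Ifitm3, overlapping the second ISRE core there. They were in 7.83% of all windows. Counted by gene, they were in 9.04% of all genes and in 9 of the 33 listed genes (27.3%). The longest run that Ifitm2 and Ifitm3 shared was the 13 bases CAGGAAAAGGAAA, which held the shared ISRE core and occurred in 3 of the 32851 windows. The longest run was 8 bases between Ifitm1 and Ifitm2 (TACTGTAA) and 7 bases between Ifitm1 and Ifitm3 (AACACTG).

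The probe set values were RMA intensities as deposited, here on the log2 scale, and their depth has no counterpart in reads: the number of arrays limits the precision. Arrays of 1 group correlated at 0.985 for CD4+ T cells, 0.984 to 0.992 for PreMegE, 0.994 for MPP and 0.985 to 0.988 for HSC across genes. Of the sort markers, Cd4 stood at 9.30 ± 0.27 (SD) in CD4+ T cells and at 4.76 to 4.89 on average elsewhere, Flt3 at 10.02 ± 0.08 in MPP and 6.60 ± 0.24 in HSC, and Slamf1, which encodes CD150, at 3.72 ± 0.17 in MPP and 6.83 ± 0.20 in HSC. In PreMegE, also sorted as CD150+, Slamf1 was at 6.58, 6.79, 7.02 and 6.91. The PreMegE gate excluded CD105 and CD41, which the MPP and HSC gates do not name. Eng, which encodes CD105, averaged 8.11 ± 0.19 in PreMegE, 7.74 ± 0.28 in MPP and 7.92 ± 0.19 in HSC. Itga2b, which encodes CD41, averaged 8.45 ± 0.29 in PreMegE, 7.82 ± 0.11 in MPP and 10.54 ± 0.09 in HSC. Some arrays stood apart. Xist, transcribed from the inactive X chromosome of female cells, was at 2.45 and 2.59 in HSC replicates 2 and 3 and between 10.91 and 12.44 on the other 10 arrays. All MPP arrays were among the latter, so in MPP against HSC the Xist difference cannot be fully told apart from cell type. Fits that leave out HSC replicates 2 and 3 hold only arrays with high Xist. Sex is not given in the labels. The immunoglobulin gene Ighm reached 12.28 and 12.49 in the CD4+ T cell arrays, although that sort gated out B220+ cells. The summed intensity of 9 B cell genes was 5408 to 6312 in CD4+ T cells, 184 to 874 in PreMegE, 1216 to 1954 in MPP and 214 to 832 in HSC. Of the 9, 6 were called higher and 1 lower in CD4+ T cells than in HSC, where 17% and 20.8% of all genes were. Among the defining B cell markers, Ms4a1 was at 6.45 and 6.76 in the CD4+ T cell arrays and at most 3.42 on the others. Cd22 was at 6.04 and 6.85 against at most 4.81, and Cd79b at 7.12 and 7.14 against at most 6.17. Cd79a was at 4.83 and 4.66 against at most 3.92. Pax5 went the other way, with an average of 3.41 in CD4+ T cells and 4.15 in HSC. Vpreb1 averaged 5.14 in CD4+ T cells and 5.68 in HSC, and Igll1 5.17 and 5.25, so neither was higher there. The sum over 10 mature neutrophil genes ran from 129 to 192 in CD4+ T cells, 658 to 2460 in PreMegE, 172 to 328 in MPP and 470 to 4277 in HSC. For both sums the PreMegE maximum was in replicate 1 and the HSC maximum in replicate 2. Ighm was at 9.35 in PreMegE replicate 1 and 3.57 to 4.36 on the other PreMegE arrays. It was at 9.04 in HSC replicate 2 and at 5.04 and 4.71 in HSC replicates 1 and 3. Whether RNA of other cells had a part in the levels below was not tested. The labels do not say whether replicates came from separate animals, so p-values measure the spread between these arrays, which may be technical.

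Ifitm1 transcript was abundant in MPP and HSC, lower in PreMegE and lowest in CD4+ T cells. Its log2 level was 4.61 and 4.05 in the CD4+ T cell arrays, 8.78, 8.38, 8.51 and 8.59 in the PreMegE arrays, 11.29, 11.17 and 11.32 in the MPP arrays, and 11.48, 11.17 and 11.08 in the HSC arrays. On the deposited linear scale this was 24.5 and 16.6 in CD4+ T cells, 333 to 440 in PreMegE, 2297 to 2557 in MPP and 2163 to 2850 in HSC. CD4+ T cells, PreMegE and the other marrow cells formed 3 ranges that did not overlap, while MPP and HSC overlapped. The mean level lay at the percentile 45.5 of all genes in CD4+ T cells, 86.8 in PreMegE, 98.4 in MPP and 98.5 in HSC.

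Ifitm2 divided CD4+ T cells from all marrow populations. Its log2 level was 3.11 and 2.39 in CD4+ T cells, 9.77, 9.28, 9.41 and 9.24 in PreMegE, 9.28, 9.0 and 8.89 in MPP, and 9.34, 9.42 and 8.77 in HSC. The marrow ranges overlapped one another, and both CD4+ T cell values were far below them. The mean of 2.75 ± 0.51 (SD, n = 2) in CD4+ T cells was under the lower quartile of all genes in those cells, 3.27, in the range of the dimmest probe sets, so the sizes of Ifitm2 changes against CD4+ T cells are not well determined.

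For Ifitm3 the log2 levels were 6.13 and 5.47 in CD4+ T cells, 10.52, 9.83, 10.28 and 9.90 in PreMegE, 10.71, 10.60 and 10.71 in MPP, and 10.74, 10.46 and 10.57 in HSC. CD4+ T cells were again the lowest and did not overlap any other group. PreMegE lay below every MPP array, while its replicate 1 exceeded the lowest HSC array. In CD4+ T cells its mean of 5.80 ± 0.47 (SD, n = 2) stood at the percentile 60.1 of all genes. The plot of the 3 members by array shows these levels.

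**Figure D1:**
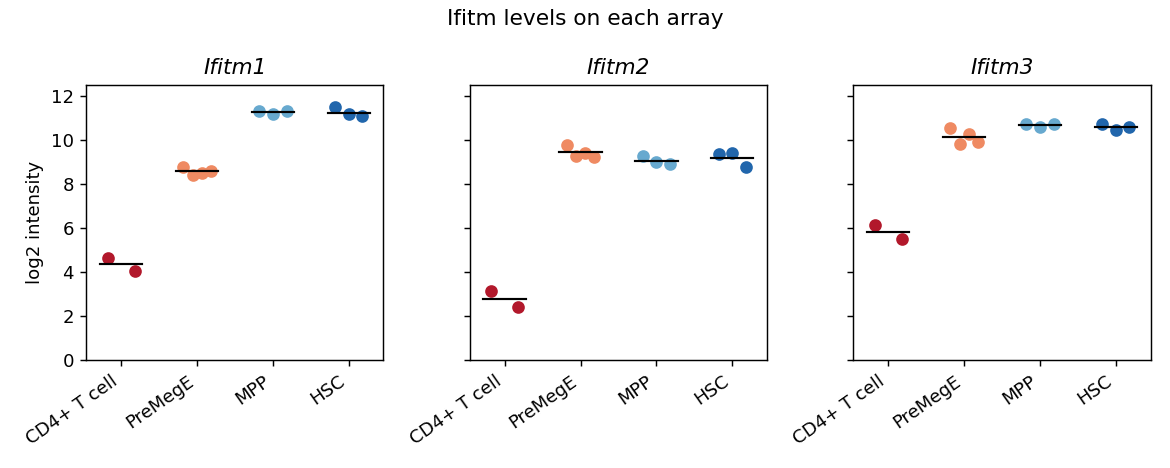
Log2 level of each Ifitm member on each of the 12 arrays, by cell population, with the group mean as a bar. The 2 CD4+ T cell arrays lie lowest for all 3 members, and PreMegE stands between them and MPP and HSC for Ifitm1.

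A limma model with a mean for each population was fitted to all genes, and Benjamini-Hochberg adjustment was made over all 18193 genes within each comparison. The threshold for a call was an adjusted p of 0.05. In bulk samples such as these, fewer cells of a type that express a gene and less RNA per cell cannot be told apart. Comparisons that involve the same population share its arrays and are not independent.

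All 3 members were called lower in CD4+ T cells than in HSC, where 20.8% of all genes were called lower. Ifitm1 averaged 4.33 ± 0.40 in CD4+ T cells and 11.24 ± 0.21 in HSC (SD, n = 2 and 3), a log2 change of -6.91 ± 0.20 (SE), or 120.3-fold lower (adjusted p = 6.07e-13, limma). This size rests on a low CD4+ T cell signal and is not well determined. For Ifitm2 the change was -6.42 ± 0.25 (adjusted p = 1.6e-11, limma), and for Ifitm3 it was -4.79 ± 0.23, or 27.7-fold lower (adjusted p = 1.65e-10, limma). With 16 added to each intensity before taking log2, which damps dim signals, the changes were -6.07 for Ifitm1, -4.70 for Ifitm2 and -4.44 for Ifitm3, all still called (adjusted p = 4.39e-10, 4.21e-08 and 5.83e-08, limma). The order of Ifitm1 before Ifitm3 in size held on both scales, while Ifitm2 lay close to Ifitm1 on one and to Ifitm3 on the other.

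The CD4+ T cell to MPP comparison gave changes of -6.93, -6.30 and -4.88 for Ifitm1, Ifitm2 and Ifitm3, each called lower, as were 20% of all genes, with adjusted p-values of 7.04e-13, 2.26e-11 and 1.5e-10 in limma. With 16 added to the intensities they were -6.09, -4.58 and -4.52. Ifitm2 was lower in CD4+ T cells than in PreMegE by a log2 change of -6.67 ± 0.24 (adjusted p = 4.27e-12, limma), Ifitm3 was 20.2-fold lower (-4.34 ± 0.22, adjusted p = 2.2e-10) and Ifitm1 was 18.8-fold lower (-4.23 ± 0.19, adjusted p = 5.18e-11), with 16.8% of all genes called lower. With 16 added, the changes against PreMegE were -4.94 for Ifitm2, -3.99 for Ifitm3 and -3.44 for Ifitm1. Leaving out either CD4+ T cell array kept all 9 calls of CD4+ T cells against the marrow populations.

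Ifitm1 was the member that set PreMegE apart from the more primitive marrow cells. It averaged 8.57 ± 0.17 in PreMegE and 11.24 ± 0.21 in HSC (SD, n = 4 and 3), a log2 change of -2.68 ± 0.16 (SE), or 6.40-fold lower (adjusted p = 1.28e-08, limma), in a comparison in which 17% of all genes were called lower. Against MPP it was 6.47-fold lower (-2.69 ± 0.16, adjusted p = 5.48e-09, limma; 19.5% of all genes called lower). With HSC replicates 2 and 3 both left out, the change against HSC was -2.91, from 1 HSC array that is assumed to vary like the other groups.

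Ifitm2 was not called in PreMegE. Its log2 difference was 0.25 against HSC (95% interval -0.19 to 0.69, adjusted p = 0.44, limma) and 0.37 against MPP (-0.07 to 0.81, adjusted p = 0.203, limma). Ifitm3 lay between the other members. Its change was -0.46 against HSC (95% interval -0.86 to -0.05, adjusted p = 0.0906, limma), which did not pass after adjustment, and -0.54 ± 0.19 (SE), or 1.45-fold lower, against MPP (adjusted p = 0.0405, limma), which did. Both Ifitm3 results depended on single arrays: without PreMegE replicate 1 the change against HSC passed (-0.59, adjusted p = 0.0291, limma), as it did with array weights (adjusted p = 0.0215). PreMegE replicate 1 had the highest B cell and neutrophil gene sums of its group, and any part of these in the Ifitm3 result was not tested. The call against MPP was lost without any 1 of the 3 MPP arrays or without PreMegE replicate 2 or 4 (adjusted p = 0.0758 to 0.121, limma), and under quantile scaling (adjusted p = 0.113).

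MPP and HSC were compared within the study, though HSC replicates 2 and 3 were low in Xist. No member was called between them, while 11.3% of all genes were, 6.38% as higher and 4.93% as lower. By limma's unadjusted p under 0.05 the count was also 0 of the 3 members. The log2 difference was 0.02 for Ifitm1 (95% interval -0.36 to 0.39, adjusted p = 0.976, limma), -0.12 for Ifitm2 (-0.59 to 0.35, adjusted p = 0.833) and 0.08 for Ifitm3 (-0.35 to 0.52, adjusted p = 0.881). Differences of up to the ends of these intervals are left undecided by 3 arrays a group. The order of levels was thus CD4+ T cells, PreMegE, then HSC and MPP undivided for Ifitm1, and CD4+ T cells, then the marrow populations undivided for Ifitm2. For Ifitm3 it was CD4+ T cells, PreMegE, HSC and MPP, with neighbours among the marrow populations not separated.

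**Figure D2:**
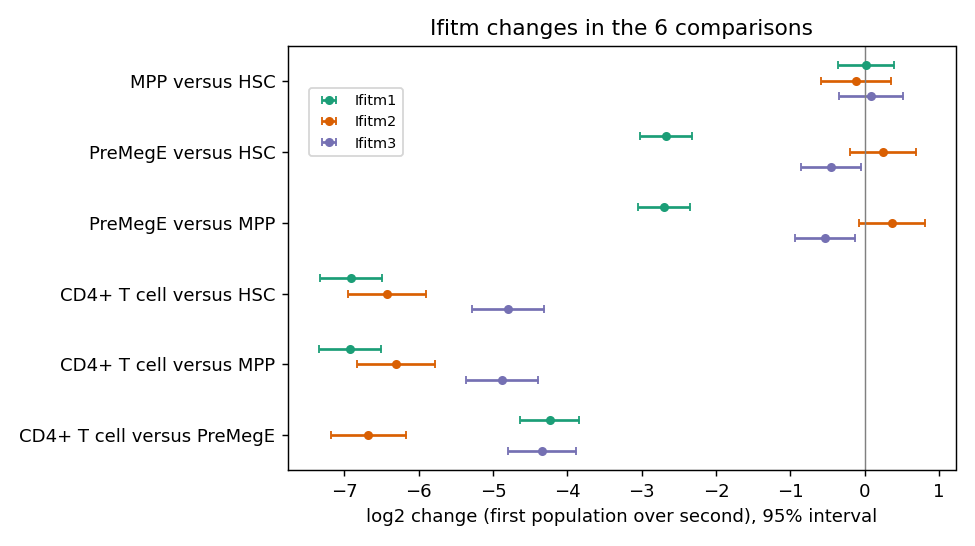
Log2 change of each Ifitm member in the 6 pairwise comparisons, first-named population over second, with 95% intervals from limma. Ifitm1 lies near -2.7 for PreMegE against HSC and MPP, where the Ifitm2 intervals include 0, and all 3 members lie below -4 for CD4+ T cells.

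Because a difference between members within 1 array does not depend on the scaling of that array by a constant, the members were also compared within arrays. Such a difference mixes the brightness of different probe sets and is read only across arrays. Ifitm1 minus Ifitm3 was -1.51 and -1.42 in the CD4+ T cell arrays, -1.74, -1.45, -1.77 and -1.31 in PreMegE, 0.58, 0.57 and 0.61 in MPP, and 0.74, 0.71 and 0.51 in HSC. CD4+ T cells and PreMegE overlapped on this measure, and both lay wholly below MPP and HSC. The CD4+ T cell values rest on a low Ifitm1 signal. The exact permutation test of this difference over the 4 populations gave p = 0.0012 (two-sided by its F statistic, 277200 assignments; adjusted over the 3 pairs p = 0.0012).

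Ifitm1 minus Ifitm2 was 1.5 and 1.66 in CD4+ T cells, -0.99, -0.90, -0.91 and -0.65 in PreMegE, 2.02, 2.17 and 2.43 in MPP, and 2.13, 1.76 and 2.31 in HSC. The 4 PreMegE arrays lay below all other arrays on this measure. The exact permutation test gave p = 0.00014 (adjusted p = 0.00021). Ifitm2 minus Ifitm3 averaged -3.04 ± 0.04 in CD4+ T cells, -0.71 ± 0.13 in PreMegE, -1.62 ± 0.19 in MPP and -1.41 ± 0.38 in HSC (SD), with an exact permutation p = 7.9e-05 (adjusted p = 0.00021). Both differences that involve Ifitm2 rest, in CD4+ T cells, on a signal in the range of the dimmest probe sets, so the CD4+ T cell values of these are not well determined and the lowest mean of Ifitm2 minus Ifitm3 is set by it.

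On the marrow arrays, given here as a description with no test, PreMegE differed from HSC by -2.22 in Ifitm1 minus Ifitm3, by -2.93 in Ifitm1 minus Ifitm2 and by 0.71 in Ifitm2 minus Ifitm3, and from MPP by -2.16, -3.06 and 0.91. In each of these the PreMegE arrays did not overlap those of HSC or MPP. Whether a probe set also binds transcript of a close paralog was not tested.

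**Figure D3:**
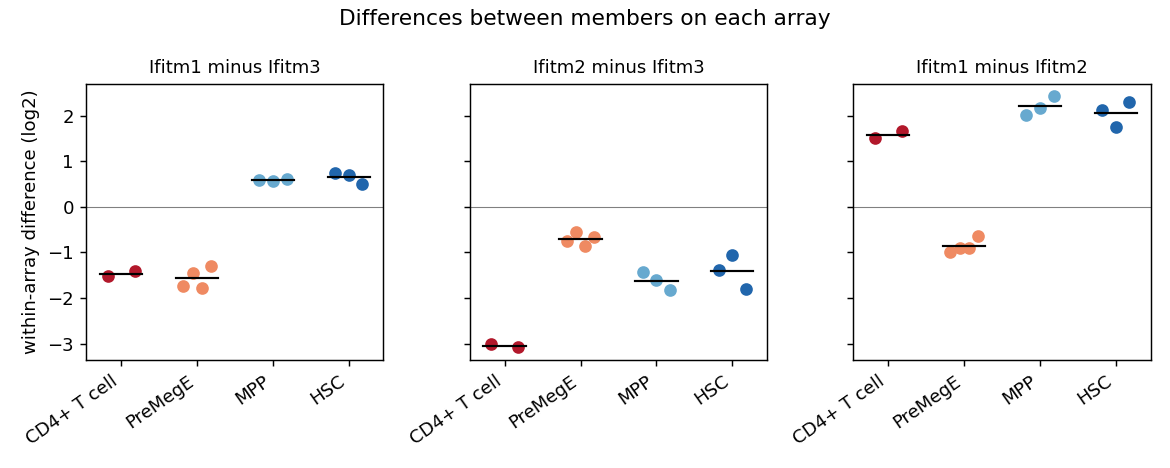
Log2 difference between pairs of Ifitm members within each array, by population, with group means as bars. The 4 PreMegE arrays lie below all others for Ifitm1 minus Ifitm2. The 0 line has no meaning of its own, since probe sets differ in brightness.

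The genes that neighbour the members on chromosome 7 were read in the same way. In the RefSeq order (GRCm38.p6), the measured genes ran Cox8b, Nlrp6, Pgghg, Ifitm5, Ifitm2, Ifitm1, Ifitm3, Ifitm6, B4galnt4, Pkp3, Sigirr and Ano9. Ifitm5, known for its part in bone mineralisation, and Ifitm6, its neighbour on the far side of Ifitm3, passed in none of the 6 comparisons by limma, nor at an unadjusted p under 0.05. Ifitm6 stood at 4.74 in HSC replicate 2. Without that array it was called higher in CD4+ T cells than in HSC by 0.92 (adjusted p = 0.00315, limma), in CD4+ T cells than in MPP by 0.66 (adjusted p = 0.0149) and in PreMegE than in HSC by 0.61 (adjusted p = 0.0247).

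Pkp3, which encodes the desmosome protein plakophilin 3, was higher in CD4+ T cells than in HSC by 2.86 ± 0.20 (SE; adjusted p = 1.2e-08, limma), opposite in sign to the members. Sigirr, an inhibitor of interleukin-1 receptor and Toll-like receptor signalling, was higher in CD4+ T cells than in HSC by 0.80 ± 0.21 (adjusted p = 0.00684), a call lost without CD4+ T cell replicate 1 (adjusted p = 0.15), and lower in PreMegE than in HSC by -1.0 ± 0.18 (adjusted p = 0.000464). B4galnt4, a glycosyltransferase gene, was lower in PreMegE than in HSC (-0.98 ± 0.17, adjusted p = 0.000381). Pgghg, which encodes a collagen glucosidase, was lower in CD4+ T cells than in HSC (-1.06 ± 0.32, adjusted p = 0.0161), a call lost without CD4+ T cell replicate 2 (adjusted p = 0.45).

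**Figure D4:**
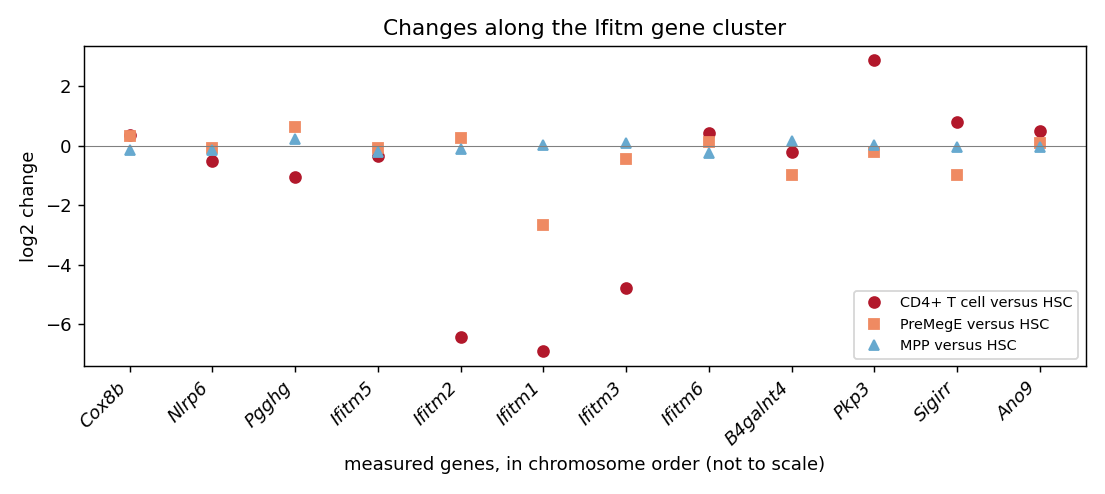
Log2 change of the measured genes around Ifitm1, Ifitm2 and Ifitm3, in chromosome order and not to scale, for the CD4+ T cell, PreMegE and MPP populations against HSC. The lowest points are those of the 3 members in CD4+ T cells and of Ifitm1 in PreMegE, and Pkp3 lies at 2.86 in CD4+ T cells.

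Of 9 other measured genes of the IFITM and dispanin family, 1 was called higher and 3 lower in CD4+ T cells than in HSC, and 2 were called lower in PreMegE than in HSC. Over all genes 17% were higher and 20.8% lower in CD4+ T cells, and 17% were lower in PreMegE, so these counts are near those of all genes. The family median change was -0.08 in CD4+ T cells, beside -0.06 for all genes. Tmem91, a dispanin gene outside the cluster, was lower in PreMegE than in HSC (-1.59 ± 0.21, adjusted p = 3.02e-05, limma) and lower in CD4+ T cells than in HSC (-1.38 ± 0.25, adjusted p = 0.00031). Ifitm7 was lower by -0.56 in both, at levels near the lower quartile of genes, and the calls were lost without HSC replicate 2 (adjusted p = 0.0758 and 0.0974). The CD4+ T cell call of Ifitm7 was also lost without CD4+ T cell replicate 1 or 2 (adjusted p = 0.0951 and 0.0812, limma). Ifitm10 was higher in CD4+ T cells than in HSC (0.85 ± 0.25, adjusted p = 0.0132, limma). That call was lost without CD4+ T cell replicate 1 (adjusted p = 0.26) or HSC replicate 1 (adjusted p = 0.0571).

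Interferon ligands were mostly dim. Of 10 measured ligand genes, 2 were called higher and none lower in CD4+ T cells than in HSC, where 17% of all genes were called higher. Ifng, the type II interferon gene, was higher by 3.43 ± 0.20 (adjusted p = 1.45e-09, limma) and Ifna5, a type I interferon gene, by 0.91 ± 0.19 (adjusted p = 0.00123). None of the 10 passed in PreMegE or MPP against HSC by limma, and at an unadjusted p under 0.05 there was 1 higher in PreMegE and 1 lower in MPP. Ifnz was higher in PreMegE than in MPP (0.69 ± 0.20, adjusted p = 0.0162, limma), where 13.5% of all genes were called higher. That call was lost without MPP replicate 1 or 2 (adjusted p = 0.0575 and 0.0584).

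Of 16 receptor and signal transducer genes, 10 were called higher and none lower in CD4+ T cells than in HSC (by limma's unadjusted p under 0.05, also 10 and 0), where 17% of all genes were called higher and 20.8% lower. The median change was 0.80 beside -0.06 for all genes. Jak1, the kinase shared by the interferon receptors, was higher by 2.01 ± 0.29, Irf9, a DNA-binding subunit of the factor that binds the ISRE, by 1.86 ± 0.20, and Irf3, which drives interferon transcription, by 1.75 ± 0.16 (adjusted p = 3.39e-05, 1.78e-06 and 3.7e-07, limma). In PreMegE against HSC, 5 were called higher and 2 lower, where 11.9% of all genes were called higher and 17% lower. Ifngr1, a receptor chain for interferon gamma, was higher (1.53 ± 0.15, adjusted p = 2.09e-06), and Irf1, a transcription factor that interferon gamma induces, was lower (-0.99 ± 0.14, adjusted p = 5.3e-05).

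In MPP against HSC, 5 of the 16 were called higher, where 6.38% of all genes were, with a median of 0.18. With HSC replicates 2 and 3 both left out none was called and the median was 0.21, while the calls over all genes went down to 779, against 2058 with all arrays. Irf7, a transcription factor of the type I interferon response, was higher in MPP by 0.79 ± 0.17 (adjusted p = 0.00673, limma). Ifnar2, a type I interferon receptor chain, was higher by 1.29 ± 0.21 (adjusted p = 0.000726), and on its next brightest probe set the change was 0.52 (adjusted p = 0.0703).

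Inhibitors of interferon signalling were called in both directions. Of 11 measured, 4 were called higher and 1 lower in CD4+ T cells than in HSC, 1 higher and 5 lower in PreMegE than in HSC, and 1 higher and 1 lower in MPP than in HSC. The shares of all genes were 17% higher and 20.8% lower in CD4+ T cells, 11.9% and 17% in PreMegE, and 6.38% and 4.93% in MPP. Socs3, a feedback inhibitor of Jak kinases, was higher in CD4+ T cells than in HSC by 4.2 ± 0.29 and higher in MPP than in HSC by 4.22 ± 0.26 (adjusted p = 1.41e-08 and 5.5e-08, limma). In PreMegE it was lower than in HSC by -2.47 ± 0.25 (adjusted p = 2.11e-06), and on its next brightest probe set by -0.07, which did not pass (adjusted p = 0.857). Cish, a related feedback inhibitor, was lower in PreMegE than in HSC by -2.54 ± 0.16 (adjusted p = 2.03e-08).

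The interferon-induced antiviral genes, a list to which the members belong by function but from which they were left out, went mostly the other way from the members in CD4+ T cells. Of 40 measured, 24 were called higher and 7 lower than in HSC, where 17% of all genes were called higher and 20.8% lower. Their median change was 0.89. Ifi27l2a, an interferon-induced gene of the Ifi27 family, was higher by 6.80 ± 0.21, Ifit1, which binds viral RNA, by 2.84 ± 0.30, and Samhd1, which degrades deoxynucleotides, by 2.60 ± 0.20 (adjusted p = 1.31e-12, 1.6e-06 and 3.68e-08, limma). Against MPP, 20 were higher and 9 lower in CD4+ T cells, where 15.5% of all genes were higher and 20% lower. Against PreMegE, 23 were higher and 4 lower, where 16.3% of all genes were higher and 16.8% lower. With HSC replicates 2 and 3 both left out, 19 were called higher and 7 lower in CD4+ T cells than in HSC.

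In PreMegE against HSC, 11 of the 40 antiviral genes were called higher and 14 lower, beside 11.9% and 17% of all genes. The median was 0.03 beside -0.01 for all genes. Irgm1, an interferon-induced GTPase gene, was higher by 1.80 ± 0.18 (adjusted p = 2.4e-06, limma), the reverse of Ifitm1. Psmb8, an immunoproteasome subunit, was lower by -1.32 ± 0.14 (adjusted p = 3.86e-06), and by -0.19 on its next brightest probe set (adjusted p = 0.598). Eif2ak2, the RNA-activated kinase PKR, was higher by 1.88 ± 0.28 (adjusted p = 8.55e-05) on its brightest probe set and lower on the next (-0.55). Without HSC replicate 2, 6 were called higher and 14 lower. Over all genes that fit called 1733 higher and 2764 lower, against 2167 and 3088 with all arrays.

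In MPP against HSC, 7 of the 40 antiviral genes were called higher and 1 lower, beside 6.38% and 4.93% of all genes, with a median of 0.06. With HSC replicates 2 and 3 both left out none was called higher and the median was 0.04, with the same drop in calls over all genes to 779. Ifi27, an interferon alpha-inducible gene, was higher by 1.16 ± 0.18 (adjusted p = 0.00039, limma). Igtp, an interferon-induced GTPase gene, was lower by -0.91 ± 0.17 (adjusted p = 0.00213). Isg15 had no probe set assigned to it alone and was not analysed here.

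**Figure D5:**
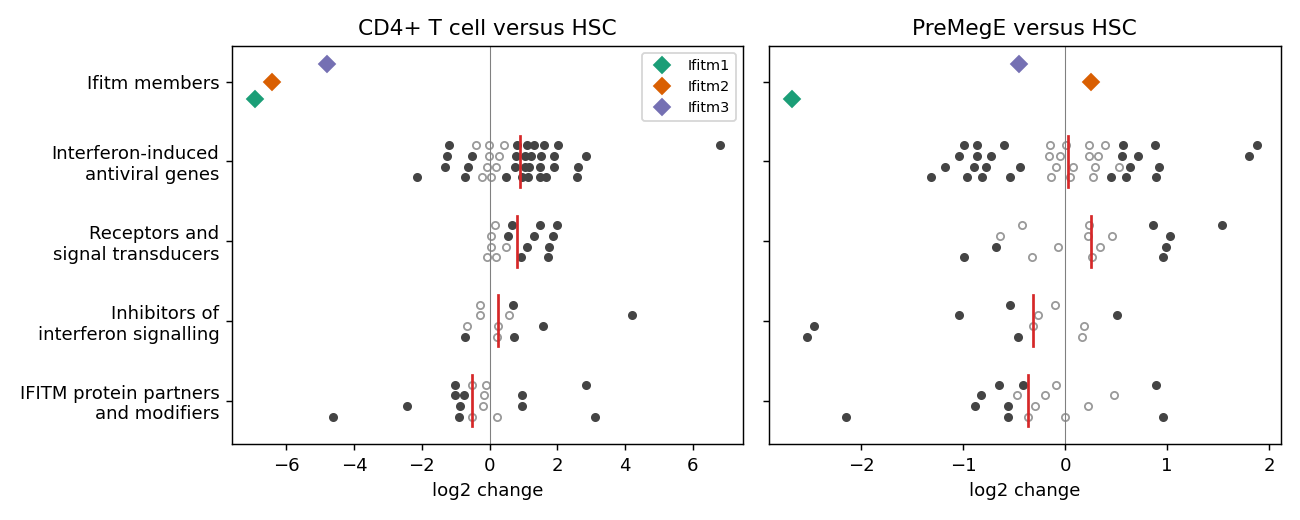
Log2 change of the members (diamonds) and of the genes of 4 interferon-related lists (circles; filled where called at adjusted p under 0.05, limma) for CD4+ T cells and PreMegE against HSC, with list medians as red bars. In CD4+ T cells the members lie between -6.91 and -4.79, while the median of the interferon-induced antiviral genes is 0.89.

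Genes whose proteins bind or modify IFITM proteins, mostly known from human or cultured cells, were called in both directions. Of 17 measured, 4 were higher and 7 lower in CD4+ T cells than in HSC, 2 higher and 7 lower in PreMegE than in HSC, and none higher and 1 lower in MPP than in HSC. Of all genes, 17% were higher and 20.8% lower in CD4+ T cells, 11.9% and 17% in PreMegE, and 6.38% and 4.93% in MPP. The counts of higher genes in CD4+ T cells and PreMegE are near those shares. The counts of lower genes there, 7 of 17 in each, are above them, which was not tested for the list. Nedd4, a ubiquitin ligase that marks IFITM3 for degradation, was lower in CD4+ T cells than in HSC by -4.62 ± 0.25 (adjusted p = 5.73e-10, limma). Fyn, a kinase that phosphorylates IFITM3, was higher by 2.85 ± 0.19 (adjusted p = 7.25e-09), and Zdhhc20, a palmitoyltransferase that modifies it, by 3.12 ± 0.33 (adjusted p = 1.24e-06). Cd81, a tetraspanin that associates with IFITM proteins, was lower in CD4+ T cells than in MPP by -2.31 ± 0.19 (adjusted p = 9.16e-08).

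Cd9, another tetraspanin, passed in each of the comparisons among marrow populations. It was lower in PreMegE than in HSC by -2.16 ± 0.14 (adjusted p = 1.98e-08, limma), in PreMegE than in MPP by -0.91 ± 0.14 (adjusted p = 8.02e-05) and in MPP than in HSC by -1.24 ± 0.15 (adjusted p = 4.12e-05). Without HSC replicate 2, 2 partner genes were called higher and 4 lower in PreMegE than in HSC. Calls over all genes there also went down, to 1733 higher and 2764 lower, from 2167 and 3088.

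The genes most like each member were found by Pearson correlation over the 12 arrays. The 5514 candidates had an SD over the arrays of at least 0.5, with members, gene models and clone names left out. The matches describe these arrays only, since the 4 populations dominate the spread. For Ifitm1 they were Tspan4 and Ltbp3 (both r = 0.996), Mcm5 (0.991), Slc43a3 (0.989) and Tmem176b (0.989). Tspan4, a tetraspanin gene, averaged 4.05 in CD4+ T cells, 7.13 in PreMegE, 9.23 in MPP and 9.20 in HSC, so that it repeated the 3 steps of Ifitm1. For Ifitm2 they were Spns2 (0.993), Hacd1 (0.992), Tceal8 (0.992), Nfe2 (0.991) and Ogfrl1 (0.991). Spns2, a sphingosine-1-phosphate transporter gene, averaged 3.12 in CD4+ T cells and 9.61, 9.40 and 9.22 in PreMegE, MPP and HSC. For Ifitm3 they were Stmn1 (0.995), Tnfrsf21 (0.991), Fabp5 (0.990), Morf4l2 (0.990) and Adgrg1 (0.989).

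Between members, r over the 12 arrays was 0.978 for Ifitm2 and Ifitm3, 0.928 for Ifitm1 and Ifitm3 and 0.845 for Ifitm1 and Ifitm2. Over the 10 marrow arrays alone, a choice made after the levels were seen, it was -0.179, 0.823 and -0.498 in the same order of pairs. The best match of Ifitm1 on the marrow arrays, among the 3638 candidates by the same rule there, was Crispld1 (r = 0.996), while for Ifitm3 it was Bbs1 (0.920) and for Ifitm2 it was Psg21 (0.827).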

How the data were processed

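RNA of 12 sorted samples was hybridised to Affymetrix arrays. The values are intensities that the authors deposited after RMA, a method that summarises the probes of a probe set into 1 value, per the submitters' processing notes, and which arrays were normalised together is not given in the sources used here. They lay on a linear scale, so log2 was taken, with no offset. Of 45101 probe sets, 34945 were paired with a single gene symbol by the platform annotation. The others were not used for gene levels, and each gene took its brightest probe set over the 12 arrays. Populations came from the sample titles. limma 3.58.1 in R 4.3.3 (lmFit, eBayes) fitted 4 population means to 18193 genes, with 6 comparisons and Benjamini-Hochberg adjustment, and was tested on simulated data. The CD4+ T cell group of 2 arrays takes most of its error estimate from the others. Within-array differences between members were tested by exact permutation of the F statistic, counted over all assignments with numpy 2.4.6.

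The members, gene lists and tests were chosen with earlier results of these data known. Named were all members, the measured dispanin genes and cluster neighbours, up to 3 called genes with the largest change per interferon or partner list and comparison, the sort markers, and the 5 genes most like each member. Of 15 array pairs with the same replicate number in different groups, 3 had deviations correlated over 0.1 (range -0.12 to 0.41), so the numbers were not taken to pair samples. Alternatives covered scaling, probe set choice, filters, offsets, array weights, blocks and each array left out. PreMegE replicate 4 is called replicate 3 in its description, and averaging both was an alternative.

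Further marker lists were measured against HSC, where 17% of all genes were called higher and 20.8% lower in CD4+ T cells. These shares were 11.9% and 17% in PreMegE and 6.38% and 4.93% in MPP. Stem cell genes were called lower for 8 of 10 in CD4+ T cells, PreMegE and MPP alike. Of 7 lymphoid priming genes, 5 were higher and 1 lower in CD4+ T cells, 1 higher and 4 lower in PreMegE, and 6 higher in MPP. Megakaryocyte genes were lower for 7 of 9 in CD4+ T cells, with 1 higher, and lower for 8 in PreMegE and 8 in MPP. Erythroid genes were lower for 6 of 7 in CD4+ T cells, higher for 6 in PreMegE and lower for 6 in MPP. T cell genes were higher for 9 of 9 in CD4+ T cells.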

Additional observations from a re-analysis of the deposited data

How the results depend on the processing

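The number of arrays, the dim signal of Ifitm2 in CD4+ T cells and the low signal of Ifitm1 there are the main limits. Among the 18 member results, 16 kept their direction where called and their side of the threshold in all 23 alternatives. Ifitm3 in PreMegE against HSC passed with array weights (-0.58, adjusted p = 0.0215), and ranged from -0.59 to -0.36 with 1 array left out at a time. Ifitm3 in PreMegE against MPP did not pass under quantile scaling (-0.38), under loess scaling (-0.42), with PreMegE replicates 3 and 4 averaged (-0.52, adjusted p = 0.0569) or with HSC replicates 2 and 3 both left out (-0.54, adjusted p = 0.0535, chosen after seeing the data), and ranged from -0.67 to -0.44 with 1 array left out. The cause was not tested. Adding 16 to each intensity before log2 moved Ifitm2 in CD4+ T cells against HSC to -4.70, a change of dim values by construction. With the replicate block, Ifitm3 in PreMegE against MPP was -0.46 (adjusted p = 0.0419, limma) and Ifitm1 -2.70, and 5800 genes were called there, against 6004 without it. The block changed no member call.

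Fitting all probe sets together called 11772, 11299 and 10154 probe sets in CD4+ T cells against HSC, MPP and PreMegE, 8516 and 10348 in PreMegE against HSC and MPP, and 3091 in MPP against HSC, where the gene fits called 6879, 6465, 6028, 5255, 6004 and 2058 genes; it tests more features. Leaving out HSC replicates 2 and 3 together, 3395 genes were called in PreMegE against HSC and 779 in MPP against HSC. With 1 array left out, MPP against HSC had 1280 to 2341 calls, the fewest without MPP replicate 3. Taking the next brightest probe set reversed 8 named results: Eif2ak2 in PreMegE against HSC (-0.55) and MPP (-0.53), Ifnar2 in PreMegE against MPP (0.13), Irf5 in MPP against HSC (-0.13) and in PreMegE against MPP (0.16), Pias2 in CD4+ T cells against MPP (0.046) and in PreMegE against MPP (0.36), and Prrt1 in CD4+ T cells against HSC (0.21). Each member had a single probe set, so no other probe set could give its value.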

Other observations

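Marker lists of other cell types were also read in CD4+ T cells against HSC, all by limma and over arrays of different studies, where 17% of all genes were called higher and 20.8% lower. Of 10 macrophage and monocyte genes, 5 were called higher and none lower, with a summed intensity of 647 to 772 in CD4+ T cells, 134 to 199 in PreMegE, 562 to 597 in MPP and 194 to 556 in HSC. Of 9 B cell genes, 6 were called higher and 1 lower. Of 7 natural killer and cytotoxic genes, 4 were called higher and 1 lower, and of 6 plasmacytoid dendritic cell genes, 3 were called higher and 2 lower. Of 13 stroma and endothelium genes, 1 was called higher and 4 lower. The part of such cells in the Ifitm levels was not tested.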
